A study of Homo sapiens with 9 samples.

Results

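Peaks of Argonaute binding in 51 genes of the DNA replication machinery and of nucleotide supply were compared between cells that received miR-342-3p and cells that received miR-342-5p. A peak was assigned to a gene when its midpoint lay on the gene's strand between the first and the last base of the gene on hg19. By this rule the genes held 16 peaks out of 3450 in the miR-342-3p list and 13 out of 5010 in the miR-342-5p list, in 23 of the 51 genes, and 28 genes held no peak. The rule uses gene names and positions alone, but the genes were listed with earlier results of these data known.

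The cells were MDA-MB-231HM, a highly metastatic variant of the human triple-negative breast cancer line MDA-MB-231, with the genotype given as WT. All of them were transfected with 20 nM of a mirVana mimic, a synthetic double-stranded RNA that loads 1 chosen microRNA strand, with Lipofectamine RNAiMAX. There were 9 libraries, 3 for each miR-342 strand and 3 for a negative control mimic. After 48 h the cells were UV crosslinked and Ago2 was immunoprecipitated with the RNA it held, an assay known as Ago-HITS-CLIP. The deposited lists give the peaks of either strand relative to the control mimic with the replicates merged, so the depth of each library is unknown and no spread between replicates could be computed. The lists share their control libraries. A single cell line at a single dose and time was measured, and mRNA levels were not analysed here, so a gene without a peak cannot be told apart from a gene that is little expressed.

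DNA replication starts with licensing. The origin recognition complex, CDC6 and CDT1 load the MCM2-7 helicase onto origins before S phase, and CDC45 and the GINS complex later activate it. Polymerase alpha-primase then lays down primers, polymerases delta and epsilon extend them behind the PCNA clamp, RPA covers the single strands, and FEN1 and LIG1 join the Okazaki fragments. MicroRNAs guide Argonaute to mRNAs mainly through their seed, and pairing in 3′UTRs generally represses more than pairing in coding sequence.

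The strands of miR-342 have unrelated seeds. They are shown from 5′ to 3′ as RefSeq gives the mature sequences, with the seed (bases 2 to 8) in capitals.
miR-342-3p: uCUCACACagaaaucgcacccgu
miR-342-5p: aGGGGUGCuaucugugauuga
A site was taken to be an 8mer (GUGUGAGA or GCACCCCA), a 7mer-m8 (GUGUGAG or GCACCCC) or a 7mer-A1 (UGUGAGA or CACCCCA) within 50 nt of the summit on the strand of the peak. The 6mers UGUGAG and CACCCC are the part common to these and were not counted as sites.

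The miR-342-3p peaks with a site are shown first, since they carry the comparison of the seeds. The site is in capitals, with 11 nt of the hg19 genome on each side.
RPA1, the higher peak: gguugacgaaaGUGUGAGuguuugucaug
LIG1: gagggguguguGUGUGAGgggguggcuua
RPA1, the lower peak: gauuguaccgcUGUGAGAagugcgacacc
CDC6: agaaucugcauGUGUGAGAcuauucaagca
RRM2: ggccuucauauGUGUGAGAagccguuucau
MCM6: acagcagcuguUGUGAGAgaugaagaauc
The remaining peak of this kind lay in MCM4. The 7mer of the higher RPA1 peak crosses the end of exon 8, and its last 5 letters lie in the intron.

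The miR-342-5p peaks with a site are given in the same way, ordered by score.
RRM1: gacggaaacagGCACCCCguauaugcucu
MCM3: ugcuuugcacuGCACCCCgagcuaucccc
POLA2: cagcugccuguCACCCCAgauguccucau
CDT1, exon 3: uggggaguccuGCACCCCAgaggccgaggg
CDT1, exon 1: gcuggccugccGCACCCCcagccccgcca
POLE: agaaaugcagaCACCCCAgacgagagccu
MCM2: acgucagacacCACCCCAgcaacaaggag
No miR-342-3p window held a miR-342-5p site, and no miR-342-5p window held a miR-342-3p site (0 of 16 and 0 of 13 windows).

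Of the 51 genes, 15 (29.4%, 95% Wilson CI 18.7–43.0%) had a miR-342-3p peak and 10 (19.6%, CI 11.02–32.46%) a miR-342-5p peak. Among all 20163 protein-coding genes, 11.8% had a miR-342-3p peak and 11.8% a miR-342-5p peak. A peak in either list was found in 45.1% of the replication genes and 19.5% of all genes. The set of all genes may include genes not expressed in these cells, so preferential binding of the replication genes was not tested. MCM7 and RRM1 alone had peaks in both lists, which is 2 of the 23 genes with a peak (8.70%), where over all genes with a peak the share was 20.8%. Of all protein-coding genes, 4.06% had peaks in both. Bound in 1 list only were 13 genes for miR-342-3p and 8 genes for miR-342-5p, a difference that did not pass an exact McNemar test (two-sided p = 0.383, adjusted p = 0.767 over 8 tests). The intervals cover counting error only, and peaks of a gene are not independent of each other.

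The score, which the methods describe as reads above background, ranged from 8 to 110 in the miR-342-3p peaks of these genes, with a median of 23.5. In the miR-342-5p peaks it ranged from 9 to 72 with a median of 23. The medians of the whole lists were 24 and 19. Scores of the lists were not compared by a test, since the scaling between libraries is not given in the sources used here. A score above 50 was reached by RPA1 (110) and LIG1 (56) for miR-342-3p, and by RRM1 (72) and MCM3 (53) for miR-342-5p. In the whole lists, 24.1% and 16.7% of the peaks were above 50, and 3.47% and 2.85% of all protein-coding genes had such a peak.

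**Figure D1:**
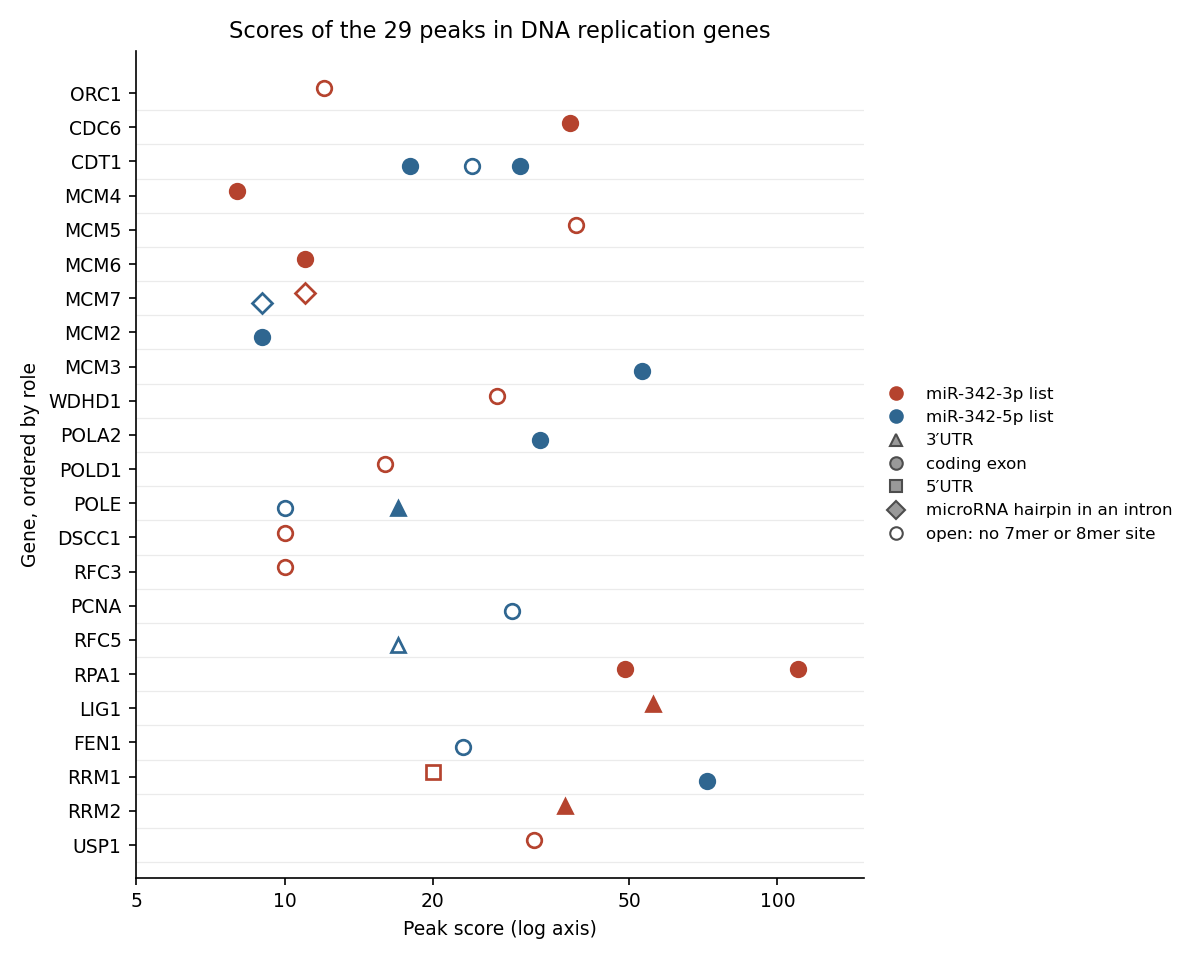
Score of each of the 29 peaks in the replication genes (log axis), with the genes ordered by role. Filled symbols mark peaks with a 7mer or 8mer site on the genome, and the 4 peaks above 50 (RPA1, LIG1, RRM1 and MCM3) are all filled. On the spliced transcript the RPA1 peak of score 110 has no 7mer or 8mer. The symbol shows where the midpoint of the peak lies.

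In the origin recognition complex, the 6-subunit assembly that marks origins, ORC1 alone held a peak. It was a miR-342-3p peak of score 12 in coding exon 2, only 12 nt wide and without a site. ORC2, ORC3, ORC4, ORC5 and ORC6 had none, although the 3′UTR of ORC4 contains 2 miR-342-3p 7mers and that of ORC6 contains 1. Among the licensing factors, CDC6, the ATPase that joins the origin complex, had a miR-342-3p peak of score 38 at chr17:38447546-38447591 in coding exon 3. Its 8mer lies 0.5 nt from the summit, measured from the centre of the site. CDT1, which brings MCM2-7 to the origin, had 3 miR-342-5p peaks and no miR-342-3p peak. These lay in exons 1, 2 and 3 with scores of 18, 24 and 30. The highest, at chr16:88871226-88871306, held an 8mer 4.5 nt from the summit, the peak in exon 1 held a 7mer-m8, and that in exon 2 a 6mer only. GMNN, the inhibitor of CDT1, had no peak in either list. CDC6 thus had a peak in the miR-342-3p list alone and CDT1 in the miR-342-5p list alone. Of all protein-coding genes with a peak, 20.8% had peaks in both lists, so most were in 1 list only.

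All 6 subunits of the MCM2-7 helicase, which unwinds the template at the fork, held a peak in at least 1 list. The share among all protein-coding genes was 19.5%, and the peaks of MCM7 lay in an intron, as described below. MCM4, MCM5, MCM6 and MCM7 had miR-342-3p peaks and MCM2, MCM3 and MCM7 had miR-342-5p peaks. MCM3 had the highest score of the helicase, 53, at chr6:52141871-52141996 in coding exon 8, with a 7mer-m8 whose centre was 10 nt from the summit. MCM2 had a score of 9 at chr3:127337870-127337945, with a 7mer-A1. MCM5 had a miR-342-3p score of 39 in coding exon 6 without a site, and MCM6 a score of 11 at chr2:136616924-136616981 with a 7mer-A1 1 nt from the summit. MCM4 had the lowest score of all 29 peaks, 8, with a 7mer-A1 19 nt from the summit. The peaks with a site in MCM2, MCM4 and MCM6 were therefore all among the weak ones, at 8 to 11.

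The MCM7 peaks lay outside the exons of MCM7. They were the only overlapping pair of the lists in these genes, and both lay in an intron on the hairpin of miR-106b, a microRNA made from this intron together with miR-93 and miR-25. The miR-342-5p peak (score 9) spans chr7:99691625-99691646, exactly the 22 nt of the mature strand miR-106b-3p, and the miR-342-3p peak (score 11) covers the same strand and 3 nt more. The strand is shown with its seed in capitals because it is itself a microRNA, of the kind that Argonaute carries.
miR-106b-3p: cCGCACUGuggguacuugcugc
No peak lay on the other arm of this hairpin, or on the hairpins of miR-93 and miR-25. Without these peaks, 5 of the 6 subunits were bound and RRM1 was the single gene with a peak on its own transcript in both lists.

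Of the 7 factors that activate the helicase or hold the fork together, 1 had a peak. WDHD1, a scaffold that links the helicase to polymerase alpha, had a miR-342-3p peak of score 27 in its last exon without a site. MCM10, CDC45, GINS1, GINS2, GINS3 and GINS4 had no peak in either list. GINS3 carries a miR-342-5p 8mer in its 3′UTR that no peak covered.

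A peak was present in 1 of the 4 subunits of polymerase alpha-primase and in 2 of the 5 of polymerases delta and epsilon. POLA2, the B subunit of polymerase alpha, had a miR-342-5p peak of score 33 in coding exon 17 at chr11:65063372-65063437, and its 7mer-A1 was centred 1 nt from the summit. POLA1, PRIM1 and PRIM2 had none. POLE, the catalytic subunit of polymerase epsilon, had 2 miR-342-5p peaks. The higher, with a score of 17, lay in the 3′UTR at chr12:133200483-133200619, 766 nt after the stop codon, with a 7mer-A1. The lower, with a score of 10, lay in coding exon 10 and had a 6mer. POLD1, the catalytic subunit of polymerase delta, had a miR-342-3p peak of score 16 in coding exon 24, and POLD2, POLD3 and POLE2 had none.

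At the clamp, PCNA and RFC5 had miR-342-5p peaks and RFC3 and DSCC1 had miR-342-3p peaks, and none of these 4 peaks held a 7mer or 8mer. PCNA, the sliding clamp, had a score of 29 in coding exon 5. RFC5 and RFC3, subunits of the complex that loads PCNA, had scores of 17 in the 3′UTR, with a 6mer, and 10 in coding exon 1. DSCC1, part of an alternative clamp loader, had a score of 10 and a peak only 3 nt wide. RFC1, RFC2 and RFC4 had no peak.

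RPA1, the large subunit of the single-strand binding protein, had the highest score of the 51 genes and 2 miR-342-3p peaks. The higher peak, with a score of 110, spans chr17:1780563-1780608 at the end of exon 8 and was above 90.3% of the miR-342-3p list. The lower peak, with a score of 49, spans chr17:1792057-1792113 in exon 14 and its 7mer-A1 lies 6 nt from the summit. RPA2 and RPA3 had no peak. In Okazaki fragment maturation both genes were bound, each in a different list, where 19.5% of all protein-coding genes had a peak in either list. Over all protein-coding genes with a peak, 20.8% had peaks in both lists. LIG1, the ligase that seals the fragments, had a miR-342-3p peak of score 56 in its 3′UTR at chr19:48618748-48618830, 129 nt after the stop codon. FEN1, the nuclease that trims the flaps, had a miR-342-5p peak of score 23 in its coding sequence without any seed match.

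Both subunits of ribonucleotide reductase, the enzyme that makes deoxynucleotides, had peaks, beside 19.5% of all protein-coding genes. RRM1, the large subunit, had the highest miR-342-5p score of these genes, 72, at chr11:4144445-4144523 in coding exon 12. Its 7mer-m8 is centred 1 nt from the summit. RRM1 also had a miR-342-3p peak of score 20 in its first exon, with the midpoint in the 5′UTR and without a site. RRM2, the small subunit, had a miR-342-3p peak of score 37 in its 3′UTR at chr2:10270250-10270323, 779 nt after the stop codon, with an 8mer 13.5 nt from the summit. TYMS and TK1, which supply thymidylate, had no peak. Neither did TOP2A, the topoisomerase of replicated DNA, nor CHAF1A and CHAF1B, which place histones behind the fork, while USP1, which deubiquitinates PCNA, had a miR-342-3p peak of score 32 without a site. Near copies elsewhere in the genome matched the windows of 3 peaks by at least 90% over at least 50 nt. They were those of RRM2 (2 copies, up to 97.0% identity), FEN1 (95%) and PCNA (93.8%), and reads from the copies cannot be told apart here. Another gene is annotated on the same strand at 5 peaks, the MCM7 pair and those of POLD1, POLA2 and FEN1.

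Most of these peaks lay in coding exons for both strands of miR-342. Coding exons held 12 of 16 miR-342-3p peaks (75%, CI 50.5–89.8%, in 11 genes) and 10 of 13 miR-342-5p peaks (76.9%, CI 49.7–91.8%, in 8 genes), and Fisher's exact test, two-sided, gave p = 1. In the whole lists these shares were 55.1% and 70.3%. The 3′UTRs of RRM2 and LIG1 held 2 of 16 miR-342-3p peaks (12.5%, CI 3.50–36.0%), where the whole list had 34.2%. Those of POLE and RFC5 held 2 of 13 miR-342-5p peaks (15.4%, CI 4.33–42.2%), where the whole list had 18%. Here too Fisher's exact test gave p = 1, and with so few peaks a difference of moderate size was not detectable.

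**Figure D2:**
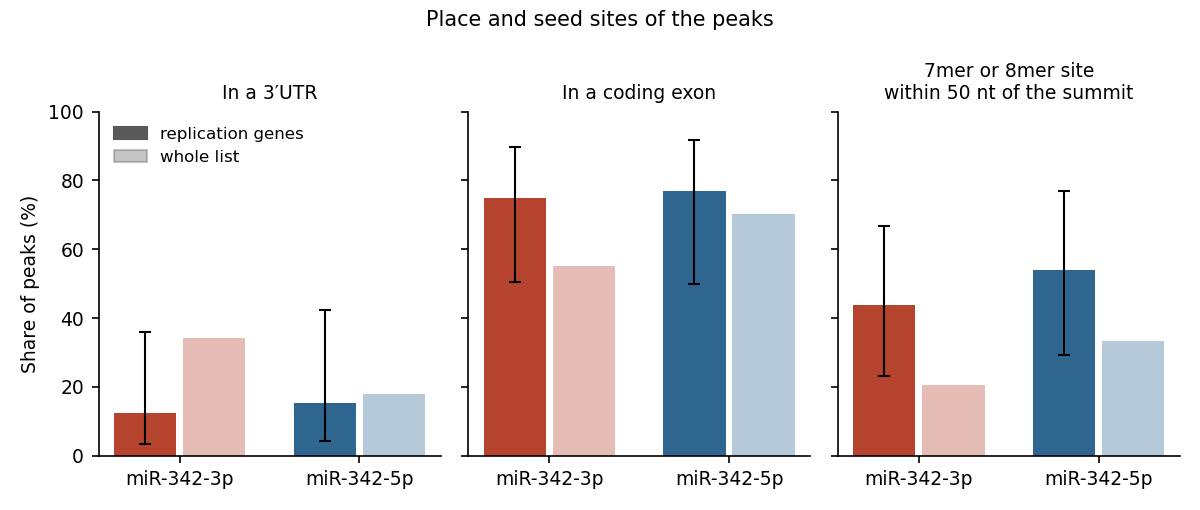
Share of peaks in 3′UTRs, in coding exons and with a 7mer or 8mer site (%), for the replication genes (dark bars, 16 and 13 peaks, error bars 95% Wilson intervals) and for all nuclear peaks of each list (pale bars, 3450 and 4963 peaks). In the replication genes, 75% and 76.9% of the peaks were in coding exons.

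Sites of 7mer or 8mer type occurred in 7 of 16 miR-342-3p windows (43.8%, CI 23.1–66.8%) and 7 of 13 miR-342-5p windows (53.8%, CI 29.1–76.8%), in 6 genes each. Over all protein-coding genes, 3.13% and 6.35% had a peak with a site, beside 6 of the 51 replication genes in each list. The difference between 7 of 16 and 7 of 13 windows did not pass Fisher's exact test (p = 0.715, adjusted p = 1). In the whole lists the shares were 20.6% and 33.2%. An 8mer was present in 2 miR-342-3p windows (CDC6 and RRM2) and 1 miR-342-5p window (CDT1), beside 8.26% and 9.11% of the lists. The same windows read on the opposite strand had no site (0 of 16, which allows a share of up to 18.8%, and 0 of 13, up to 23.1%). The exact McNemar test for the strand gave p = 0.0156 for each list, which after adjustment over the 8 tests was 0.0625 and did not pass 0.05. Every site touched its peak, and a site lay wholly within the peak in 5 of 16 miR-342-3p and 7 of 13 miR-342-5p peaks. The sites of MCM4 and of the higher RPA1 peak ran past the end of the peak. The median distance from the centre of the site to the summit was 6 nt in both lists, up to 19 nt for miR-342-3p and 13 nt for miR-342-5p. Scores of peaks with a site had medians of 38 and 30, and those without a site had medians of 16 and 20. Without a site on the genome the highest scores were 39 (MCM5) and 29 (PCNA). The RPA1 peak of score 110 is counted here as having a site, although its 7mer is absent from the spliced transcript.

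The peaks without a 7mer or 8mer differed in what they held. Of the 6 for miR-342-5p, CDT1 exon 2, POLE exon 10 and RFC5 had the 6mer. In that list the 6mer was the best match in 791 of the 3314 peaks without a site, and in 15.9% of all peaks. In the miR-342-3p list its 6mer was the best match in 110 of the 2738 peaks without a site, and in 3.19% of all peaks. Of the 9 for miR-342-3p, none had the 6mer, and USP1 had a match to bases 3 to 8 of the microRNA, GUGUGA, within 50 nt of its summit. That weaker match was present in 20.4% of all miR-342-3p peaks without a site, and its miR-342-5p counterpart in 7.66% of those without a site in the other list and in 0 of the 6 here. The summits of the highest miR-342-5p peaks without a site are shown with the 6mer in capitals where present.
PCNA: acaaaagccacuccacucucuucaacggu
CDT1, exon 2: aagauaaagaaaucCACCCCggcagcagg
FEN1: gcggcgacuugaccccaacaaguacccug

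Several miR-342-3p peaks in these genes stopped at the end of an exon. The summit lay within 5 nt of the 3′ end of an exon in 7 of 16 miR-342-3p peaks, those of RPA1 (score 110), MCM5, RRM1, POLD1, ORC1, RFC3 and DSCC1. The distances were 5 nt in RPA1, 2 nt in MCM5 and RRM1, 1 nt in POLD1, ORC1 and RFC3, and 0 nt in DSCC1. All 7 peaks, as deposited, ended on the last base of the exon. The lists do not show whether reads continued into the next exon, so the widths, summits and coverage of these peaks describe only the part before the junction. In the whole miR-342-3p list 10.6% of the summits were this close to an exon end, and 0.435% were this close to the start of an exon. No miR-342-5p peak of these genes had such a summit (0 of 13, which allows up to 23.1%), and the whole miR-342-5p list had 6.27%. This measure was chosen after the values were seen, and the difference between the lists was not tested in these genes.

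In such peaks the genome next to the summit is intron, whereas the mRNA continues with the next exon. On the spliced transcript, the 7mer of the RPA1 peak was absent, and POLD1 gained a 7mer-m8 that starts after 7 nt of exon 25, 12 nt from the summit and lies outside the deposited peak. A match to bases 3 to 8 appeared in the next exon of MCM5 and ORC1. RRM1, RFC3 and DSCC1 had neither. The junctions are shown with the last 14 nt of the exon in lower case and the first 14 nt of the next exon in capitals.
RPA1: ugguugacgaaaguGGUGAAAUCCGAGC
MCM5: cucuacugcgacagGUACCUGUGUGACA
POLD1: gcucagccaccaggGAGCCGUGUGUGAG
ORC1: uaccaaaccuauagAGAAAUGUGUGUGA
RFC3: agcugcggaaccugGUGCAGUGUGGUGA
The count of miR-342-3p peaks with a 7mer or 8mer was 7 of 16 on either kind of sequence, with RPA1 lost and POLD1 gained. With matches to bases 3 to 8 included it was 8 on the genome and 10 on the spliced transcripts. Over the whole lists, peaks that stop at an exon end had a 7mer or 8mer in 14 of 346 windows on the genome (4.05%) and in 76 on the spliced transcript (22.0%) for miR-342-3p. For miR-342-5p the same counts were 17 (5.99%) and 98 (34.5%) of 284. The highest score in the 51 genes, that of RPA1, thus belonged to a peak whose 7mer is spelled by the genome but not by the spliced transcript.

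**Figure D3:**
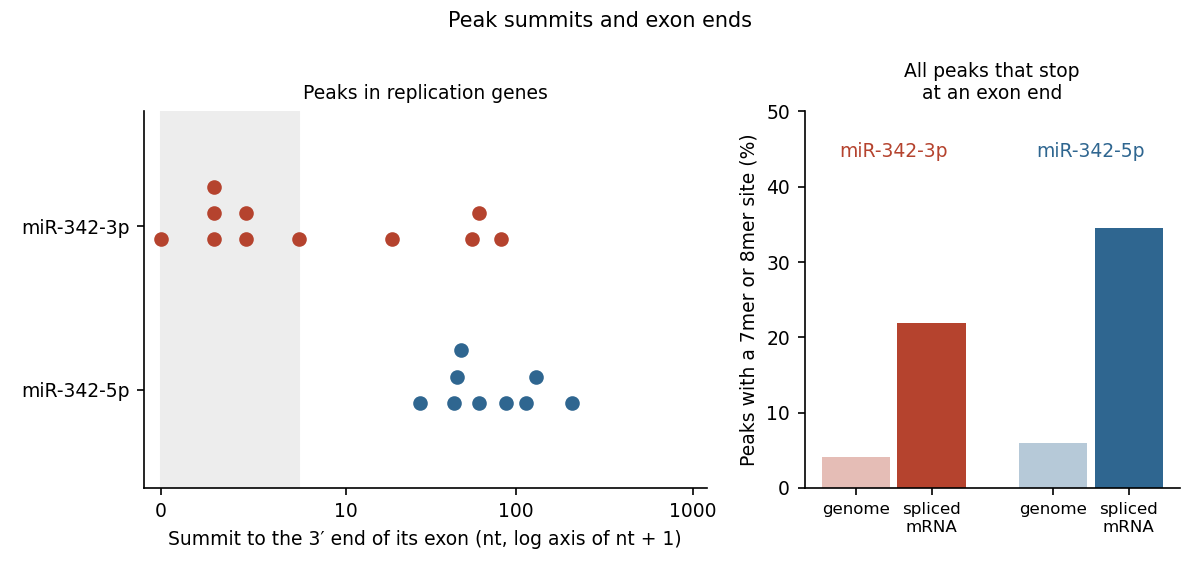
Left, distance from the summit to the 3′ end of its exon in nt (log axis) for the peaks of the replication genes whose exon is followed by another; 7 of 11 miR-342-3p summits lie within 5 nt (grey band), and the 9 miR-342-5p summits lie 28 nt or more away. Right, share of all peaks stopping at an exon end that have a 7mer or 8mer site (%), searched on the genome (pale) or on the spliced mRNA (dark); the shares are 4.05% and 22.0% for miR-342-3p and 5.99% and 34.5% for miR-342-5p.

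The sites in the mRNAs of all 51 genes were then asked for a peak. On 1 spliced transcript per gene there were 27 miR-342-3p sites in 19 genes and 24 miR-342-5p sites in 18 genes. A peak covered 2 of 10 miR-342-3p sites in 3′UTRs (20%, CI 5.67–51.0%) and 4 of 16 in coding sequence (25%, CI 10.2–49.5%; Fisher's exact p = 1). The covered sites were those of RRM2 and LIG1, and of CDC6, MCM4, MCM6 and RPA1. That of MCM4 met its peak only at the last base of the peak. For miR-342-5p the counts were 1 of 9 in 3′UTRs (11.1%, CI 1.99–43.5%), that of POLE, and 6 of 14 in coding sequence (42.9%, CI 21.4–67.4%). The latter lay in CDT1, with 2 sites, MCM2, MCM3, POLA2 and RRM1, and the difference did not pass the test (Fisher's exact p = 0.176, adjusted p = 0.469). Over all protein-coding mRNAs, peaks covered 4.76% of 3′UTR and 7.03% of coding sites for miR-342-3p. For miR-342-5p they covered 6.44% and 15.6%.

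Many sites had no peak over them. RRM2 has another miR-342-3p site in its 3′UTR, a 7mer-m8 that starts at base 10270534 of chromosome 2, and it was not covered. The 8mer in the 5′UTR of CDC6 was not covered either, while that in its coding sequence was. MCM4 and MCM6 each had a covered 7mer in the coding sequence and an uncovered one in the 3′UTR. MCM5, whose peak lay in exon 6, had its only site in the 3′UTR, again without a peak. CDT1 had both coding miR-342-5p sites covered and the 3′UTR site uncovered. Sites without any peak of the same strand were present in 9 genes for miR-342-3p (ORC4, ORC6, GINS2, POLA1, PRIM2, POLE, FEN1, CHAF1A and CHAF1B). For miR-342-5p there were 11 such genes (ORC4, CDC6, GINS3, POLD1, POLD2, RFC1, RFC2, RFC3, RPA3, LIG1 and CHAF1A). Several of these, such as POLE, FEN1, CDC6 and LIG1, had a peak of the other strand.

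**Figure D4:**
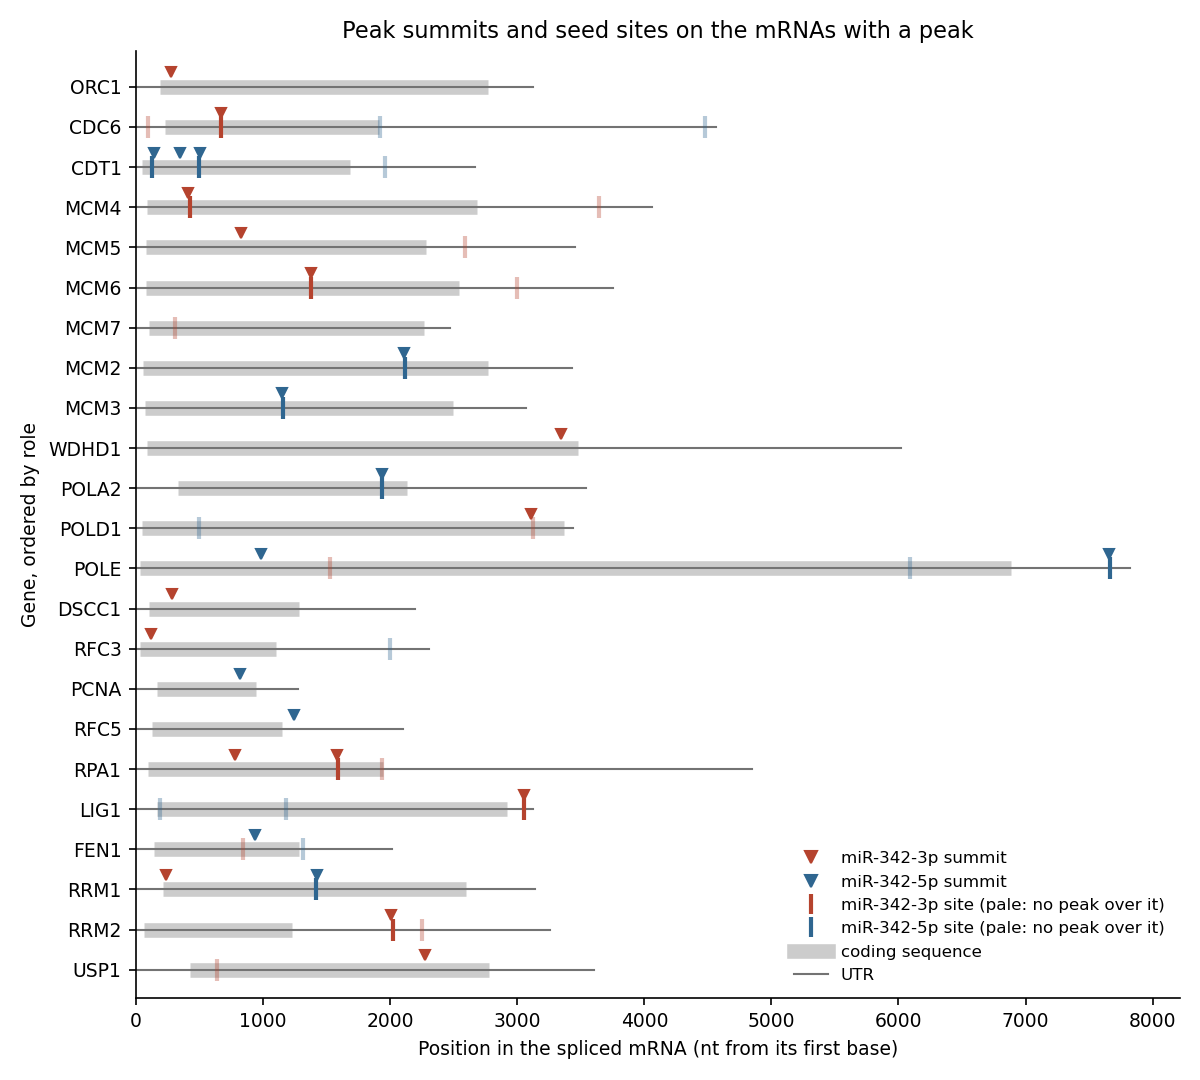
Spliced mRNAs of the 23 genes with a peak, drawn to scale in nt from the first base, with coding sequence as a thick grey bar. Triangles mark peak summits, vertical lines the 7mer and 8mer sites, and pale lines sites without a peak over them. Of the sites in all 51 genes, peaks cover 4 of 16 in coding sequence and 2 of 10 in 3′UTRs for miR-342-3p. For miR-342-5p they cover 6 of 14 and 1 of 9. MCM7 has no triangle because its peaks lie in an intron.

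A further 40 genes of replication were looked up from a list chosen with results of these data known. Of these, 6 (15%) had a miR-342-3p peak and 4 (10%) a miR-342-5p peak, beside 11.8% of all genes for each. A peak in either list was present in 8 of the 40, where the share of all protein-coding genes was 19.5%. Scores above 50 were found in TOP1, the topoisomerase ahead of the fork, in both lists (160 and 92 for miR-342-3p, 137 for miR-342-5p). They were also found in TOP2B (77), DTYMK, the thymidylate kinase (60), and DNMT1, the maintenance DNA methyltransferase (59 and 56), for miR-342-3p, and in SUPT16H, a histone chaperone subunit (56), for miR-342-5p. Neither miR-342-3p peak of TOP1 had a site, whereas its miR-342-5p peak of score 137 had a 7mer-A1.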

How the data were processed

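Per the submitters' processing notes, the authors used cutadapt 1.13, TopHat2 2.0.13, UMI-tools and MACS2 2.1.1.20160309 with hg19. The deposited lists hold 1 score per peak, of at least 5, which the authors describe as reads above background. They have no value per library, so depth per sample is unknown, samples were grouped only as the authors merged them, and no replicate error could be computed. The methods report quality filtering with Samtools; the scaling between libraries is not given in the sources used here.

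The members and lists were chosen with earlier results of these data known. Every gene with a peak is named, and full coordinates are given for the highest peak of a gene and list with a site or a score above 50, except for MCM4, whose peak is given without them. Of the other replication genes, those with a score above 50 are named. Peaks were placed by midpoint and strand on GRCh37 with GENCODE release 44 mapped to it. Where transcripts differed, 3′UTRs took precedence over coding exons, followed by 5′UTRs, other exons and introns. Coordinates are 1-based on hg19. The 47 mitochondrial peaks of the miR-342-5p list were not placed. Mature sequences are from RefSeq (GRCh38.p14 table), and the sequence of the mimics themselves was not used here. Sites in mRNAs were searched on 1 transcript per gene, and a site was covered when a peak overlapped it by 1 nt or more.

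Shares were compared by two-sided Fisher's exact and exact McNemar tests, with Benjamini-Hochberg adjustment over 8 tests and 95% Wilson intervals, in Python 3.11.15 with scipy 1.17.1, statsmodels 0.14.6, pandas 2.3.3, pysam 0.24.0 and samtools 1.23.1. For counts of 0, the upper limits given are instead 3 divided by the number of peaks, an approximate 95% limit. Near copies were searched with blastn 2.17.0, and figures drawn with matplotlib 3.10.9. Tested on simulated data, the search found 1000 of 1000 planted sites. Alternatives were other score limits, gene and location rules, transcripts, windows and site types.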

Additional observations from a re-analysis of the deposited data

How the results depend on the processing

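Of 71 recomputed values under the alternatives, 61 belonged to tested differences and the rest to untested gene counts. In 55 of the 71, an untested count changed little or a tested difference kept its direction and its side of an unadjusted p of 0.05. Another 3 became 0 without crossing it, namely the difference in genes bound in 1 list only and that in windows with a site, both with scores above 50, and the coverage of miR-342-3p sites with 8mers alone. With scores above 50, the genes with a peak fell to 2 in each list. Under the other alternatives these untested counts were 13 to 14 for miR-342-3p, beside 15, and 7 to 9 for miR-342-5p, beside 10. The difference in the share of 3′UTR peaks (miR-342-3p minus miR-342-5p) was -2.88 percentage points and became 50 with scores above 50. That in coding exons was -1.92 and became 4.33 by the position of the summit and 3.33 with only the highest peak of each gene. That in windows with a site was -10.1 and became 4.81 with 8mers alone, -22.6 with sites within the peak and -33.2 with 6mers included. None of these passed a test (lowest exact p = 0.13). The coverage of miR-342-3p sites (3′UTR minus coding) was -5 and became 1.25 with scores of at least 10 and 10 with scores above 50. In the miR-342-3p list, the excess of sites on the same strand over the opposite strand was 43.8 percentage points (exact p = 0.0156 before adjustment) and became 100 with scores above 50 (p = 0.5), 31.2 within the peak itself (p = 0.0625) and 12.5 with 8mers alone (p = 0.5). In the miR-342-5p list it was 53.8 and became 100 (exact p = 0.5) and 7.69 (exact p = 1) under the first and last of these, and 76.9 with 6mers included (exact p = 0.00195). Except for the inclusion of 6mers, which adds sites, these alternatives leave fewer peaks or sites. The 2 alternatives added after seeing the data, without the MCM7 hairpin peaks and without peaks under another annotated gene, changed no call.

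No paired analysis was possible because the lists merge the replicates and hold no value per library, and for the same reason no replicate could be left out in turn. The number of peaks, 16 and 13, limits what differences were detectable.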
